A study of Homo sapiens with 12 samples.

Results

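The 10 genes described here make up the core of the cellular response to low oxygen, among 19027 gene symbols measured in the study. They were chosen by name: 3 subunits of the hypoxia-inducible factors (HIF1A, EPAS1 and ARNT), 4 genes that sense oxygen or dispose of the alpha subunits (EGLN1, EGLN2, VHL and HIF1AN) and 3 targets outside glycolysis (VEGFA, BNIP3 and BNIP3L). All 10 were found by symbol, each on 1 transcript, in both count tables. Their RNA and ribosome footprints were counted in 22Rv1 tumours. 22Rv1 is an established human prostate cancer cell line, and it was grown under the skin of the flank of male NSG mice, an immunodeficient strain, aged 6 to 8 weeks at injection of the cells. When a tumour had reached 70 to 100 mm3 its host was given zotatifin at 0.3 mg/kg in 5% dextrose, or 5% dextrose alone (vehicle), into the peritoneum, and tumours were frozen 6 h later. Zotatifin inhibits eIF4A, the RNA helicase that opens mRNA leaders for the scanning ribosome, and the comparison asks which mRNAs lose or gain ribosomes under the drug. There were 4 groups of 3 libraries: footprints with vehicle, footprints with zotatifin, and RNA from the same lysates with each. The labels call the 3 members of a group biological replicates, but they do not say whether each came from a mouse of its own. All groups rest on 1 cell line, and the tumours also hold blood vessels and connective tissue of the mouse host.

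HIF-1 is a pair of an alpha subunit, HIF-1α (gene HIF1A), and a partner that is always present, ARNT (HIF-1β). EPAS1 encodes HIF-2α, the alternative alpha subunit. When oxygen is ample, the prolyl hydroxylases encoded by EGLN1 (PHD2) and EGLN2 (PHD1) mark the alpha subunits, the VHL ubiquitin ligase binds the mark, and the proteasome destroys them, while the asparaginyl hydroxylase HIF1AN (FIH) blocks what remains from recruiting coactivators. Because the protein is so short-lived, its amount depends on how fast it is made as well as on how fast it is removed. When oxygen is scarce, HIF-1 induces genes for blood vessel growth (VEGFA), for the removal of mitochondria (BNIP3 and BNIP3L, the latter also called NIX) and for glycolysis. Neither protein amounts nor oxygen were measured here.

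RNA libraries held 5761921 to 8153674 counts, and footprint libraries 1592316 to 2013968 with vehicle and 838135 to 1540867 with zotatifin, so the smallest footprint library is 1 of the treated ones. Levels are given as TMM-scaled CPM (counts divided by the scaled library total), changes as log2 of zotatifin over vehicle with their standard error (SE), and errors of means as SD over 3 libraries. A gene was called changed where edgeR's quasi-likelihood test gave a Benjamini-Hochberg adjusted p under 0.05 over all genes tested in that comparison. Scaling to the library hides any shift that all mRNAs have in common. The labelled cell type was checked against 10 prostate and epithelial markers. Raw footprint counts of KLK3 were 18 to 37 a library with vehicle and 14 to 25 with zotatifin, and those of KRT8 3339 to 3981 and 1639 to 3325. The treated libraries were smaller, and after scaling KLK3 footprints differed by 0.07 and KRT8 footprints by 0.10, neither called. The summed footprints of the 10 were 4069 to 5364 CPM with vehicle and 5362 to 6187 CPM with zotatifin. In footprints 8 of the 10 changes were above 0 and 2 below, with 3 called as rises and 0 as falls. Markers of some other cells were lower with zotatifin and did not overlap between treatments: the summed footprints of 10 fibroblast markers were 461.3 to 797 CPM with vehicle and 140.4 to 259 CPM with zotatifin, and those of 7 myeloid and leukocyte markers 74.4 to 343 and 34.9 to 63.8 CPM. The sums overlapped for red blood cell markers (127 to 326 and 139 to 172 CPM) and for 8 endothelial markers (3.33 to 4.45 and 0.647 to 3.68 CPM). In the whole tumour, fewer cells of a type and less RNA per cell cannot be told apart. Host cells are of the mouse, while reads were assigned to human transcripts (hg38). How many of these marker counts came from mouse reads was not tested, so a low count does not show that a host cell type was rare.

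Ribosome footprints fell on 2 of the 10 genes, HIF1A and BNIP3, and rose on none. Of the 10, 9 passed the low-count filter for footprints (EPAS1 did not), and over all 9544 genes tested 7.14% were called, 3.92% as falls and 3.22% as rises. The median footprint change of the 9 was −0.02, against 0.00297 over all genes. No RNA was called among the 10 by edgeR, where 1.72% of 13118 genes were (0.907% fell and 0.808% rose); 2 had an unadjusted p under 0.05, and DESeq2 also called 0. Translational efficiency (TE), the footprint level over the RNA level, was tested through an assay-by-treatment interaction. Its change was called for 0 of 9 by edgeR, where 2.04% of 9454 genes were (1.6% fell and 0.444% rose). There, too, 2 had an unadjusted p under 0.05, and DESeq2 called 0. On simulated counts the edgeR interaction missed most of the changed genes, so an uncalled TE change does not show that there was none. Against that background, nothing particular to the group is read from 2 calls among 9 genes.

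**Figure D1:**
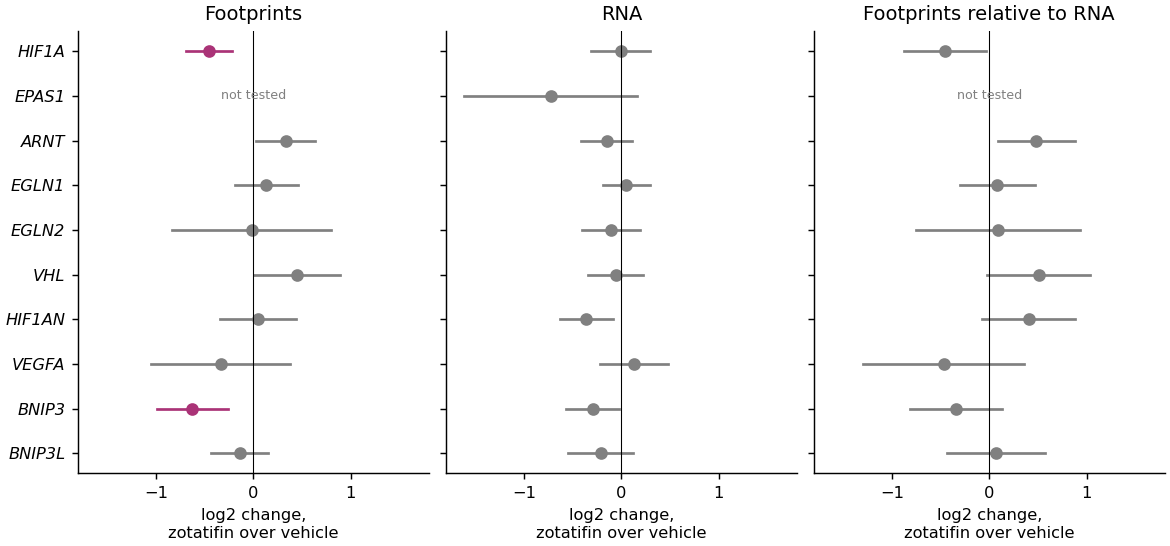
Change of the 10 genes in footprints, RNA and TE (log2, zotatifin over vehicle, points) with 95% confidence intervals (bars); purple marks an adjusted p under 0.05 and grey the rest, and EPAS1 was not tested where its counts were too low. HIF1A (−0.46) and BNIP3 (−0.63) carry the only called changes, both in footprints, while the RNA interval of HIF1A is centred near 0.

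Ribosome footprints on HIF1A mRNA fell after zotatifin, while no change of its RNA was called. HIF1A lies at chr14:61695513-61748258 (GRCh38.p14), where HIF1A-AS1, HIF1A-AS2 and HIF1A-AS3 overlap it, and whether the counting used strand is not given in the sources used here. Its footprints stood at 609.9, 651 and 639 CPM in vehicle tumours 1 to 3 and at 476, 356 and 540.1 CPM in zotatifin tumours 1 to 3, on 290 to 1241 counts a library. Every treated tumour was thus below every vehicle tumour, which was so for 13.5% of all genes tested. The means were 633 ± 21.2 and 457 ± 93.6 CPM (SD, n = 3 each). HIF1A footprints fell by 0.46 on the log2 scale (SE 0.12, 95% interval −0.70 to −0.22, adjusted p = 0.0152, edgeR). The treated tumours were spread more widely than the controls, with the second the lowest. The call was lost without vehicle tumour 1 (−0.48, adjusted p = 0.0732) and without zotatifin tumour 2 (−0.31, adjusted p = 0.0679), and over 11 alternatives the adjusted p ran from 7.99e-04 to 0.0732.

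HIF1A RNA was 204.4, 255 and 223 CPM with vehicle and 227, 175.5 and 276 CPM with zotatifin. The treated tumours held both the lowest and the highest value, and the groups overlapped. The means, 228 ± 25.8 and 226.2 ± 50.4 CPM (SD, n = 3 each), differed by −0.0074 on the log2 scale (SE 0.14, adjusted p = 0.985, edgeR), with a 95% interval from −0.31 to 0.29 that holds a rise or fall of modest size. Zotatifin tumour 2 was the lowest of the 6 in RNA as well as in footprints.

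Set against the RNA of the same tumour, HIF1A footprints also separated the treatments. The ratio of footprint to RNA CPM was 2.98, 2.55 and 2.87 with vehicle and 2.10, 2.03 and 1.95 with zotatifin. All 3 treated ratios lay below all 3 control ratios and close to one another, as was so for 15.6% of genes tested for TE, where treated values were all lower. On the log2 scale the level of TE was 1.48 ± 0.12 with vehicle and 1.02 ± 0.05 with zotatifin (SD, n = 3 each). The change was −0.45 (SE 0.20, 95% interval −0.87 to −0.04) and was not called (unadjusted p = 0.0338, adjusted p = 0.273, edgeR). With the tumour as a block, which compares the 2 assays within each tumour, the change was −0.47 (SE 0.11, 95% interval −0.69 to −0.24, adjusted p = 0.00421, edgeR) and passed. That fit called 9.14% of all genes, 6% as falls and 3.14% as rises. In the authors' deposited table the TE estimate of HIF1A was −0.316 on the natural log scale, or −0.46 in log2, with an FDR of 2.33e-13; the same table has 18.3% of 11446 genes under an FDR of 0.05, 10.2% lower and 8.09% higher. Of the 12 alternatives for this change, the tumour block was the only one that called it. Limma on 1 ratio per tumour, which also uses the pairing, gave −0.46 (SE 0.14, adjusted p = 0.135) and did not call it. HIF1A stood at the 91.3rd percentile of TE among 9454 genes with vehicle and at the 86.0th with zotatifin. That order is a description, since the counted transcript part is not given in the sources used here.

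**Figure D2:**
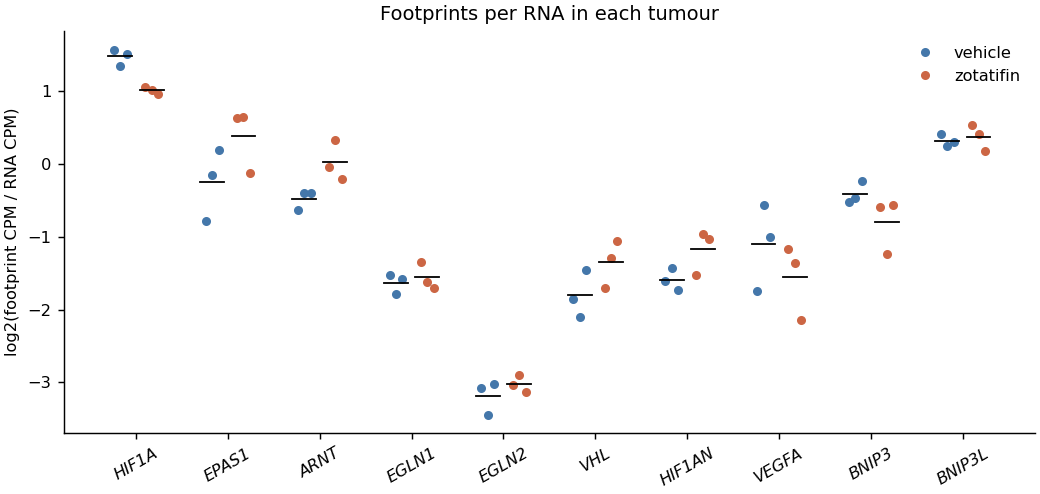
Footprints relative to RNA of the 10 genes in each tumour (log2 of footprint CPM over RNA CPM; points are tumours, bars are means of 3). The HIF1A ratios are the highest of the 10 and show a gap between treatments, where 15.6% of genes tested had all treated ratios lower. The EPAS1 ratios rest on 2 to 6 footprint counts a library.

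For these genes the start of the transcript is of interest, because eIF4A inhibitors of this kind are known to hold the helicase on stretches of purines (A and G) in mRNA leaders. RefSeq's promoter table (GRCh38.p14) held 7 of the 10 genes, and not VHL, VEGFA or BNIP3L. A window of 30 bases from the first 50 transcribed bases is shown for HIF1A and BNIP3, whose footprints fell, and for ARNT, which had the opposite sign, with every purine run of the greatest length in the first 50 bases in capitals. The windows are at chr14:61695523-61695552 (plus strand), chr10:131981894-131981923 (minus) and chr1:150876570-150876599 (minus), written 5′ to 3′ as DNA.
HIF1A: gctgcctcgtctGAGGGGAcAGGAGGAtca
BNIP3: agtccGGGAGcgcagctgggccgcggcgct
ARNT: GGGGtggcgcggcggcggtggcatctgcgg
The longest run within the first 50 bases was 7 in HIF1A, which has 2 such runs, 5 in BNIP3 and 4 in ARNT. In the other matched genes it was 3 in EPAS1, 4 in EGLN1 and in EGLN2, and 5 in HIF1AN. HIF1AN has the run length of BNIP3, and its footprints differed by 0.04. The median was 5 over 27305 promoters, of which 68.3% have a run of 5 or more and 31.2% a run of 7 or more. Purines made up 50% of the first 50 bases in HIF1A, 42% in BNIP3 and 56% in ARNT, against a median of 52%. In the other matched genes they made up 44% (EPAS1) to 62% (EGLN2). The start used by RefSeq may not be that of the mRNAs in these tumours, and leaders run on past this window, so these letters are a description of the sequence and no measure of binding.

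The partner subunit did not share the fall. ARNT (chr1:150809713-150876599) had footprints of 56.5, 76.6 and 68.6 CPM with vehicle and 84.2, 93.2 and 78.3 CPM with zotatifin. Every treated tumour was above every control, as for 12.9% of all genes. The change in ARNT footprints was 0.33 (SE 0.15, adjusted p = 0.177, edgeR) and was not called, nor was its RNA, at −0.15 (SE 0.13, adjusted p = 0.549, edgeR). ARNT TE was 0.646, 0.762 and 0.760 as a ratio with vehicle and 0.974, 1.26 and 0.869 with zotatifin, again with no overlap (10.7% of genes had all treated ratios higher). The change in TE, 0.48 (SE 0.19, 95% interval 0.09 to 0.88), had an adjusted p of 0.205 (edgeR), and of 0.0574 with the tumour as a block. In the authors' deposited table it was 0.52 in log2 with an FDR of 5.60e-04.

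Because both subunits are counted in the same library, the ratio of their raw counts is free of the scaling between libraries. In footprints, HIF1A over ARNT was 10.8, 8.50 and 9.31 with vehicle and 5.65, 3.82 and 6.90 with zotatifin. The lowest control ratio was above the highest treated one, and the means were 9.54 ± 1.16 and 5.46 ± 1.55 (SD, n = 3 each). In RNA the means of the same ratio were 2.45 ± 0.10 and 2.69 ± 0.35 (SD, n = 3 each), and the groups overlapped. A two-sided exact permutation test gave p = 0.1 for footprints, the smallest that 3 against 3 allow, and p = 0.4 for RNA. With HIF1A lower and ARNT higher in every treated library, the footprint ratio could only separate. Its p was thus fixed in advance and adds nothing to the values of the 2 genes. These were 2 of 8 such ratios, over 4 pairs of genes picked after their values were seen, and the adjusted values were 0.267 and 0.457 (exact permutation tests, Benjamini-Hochberg).

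**Figure D3:**
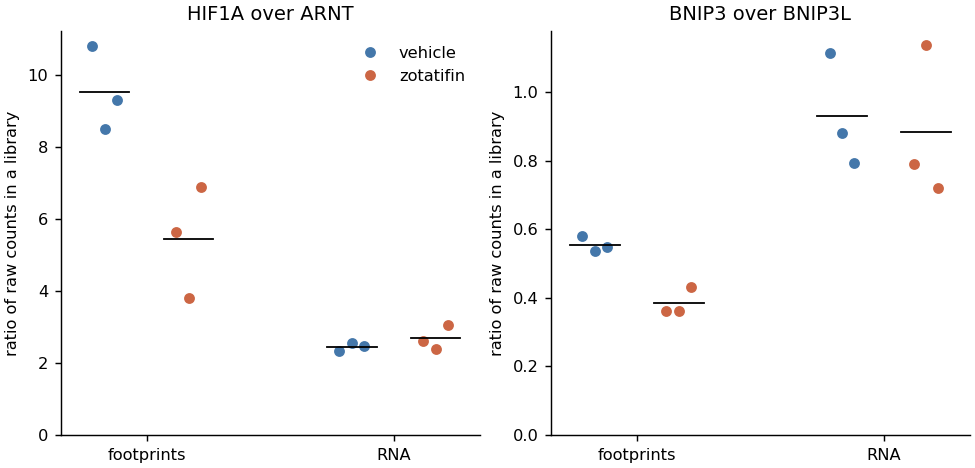
Ratio of raw counts of a pair of genes in the same library (linear axis from 0; points are libraries, bars are means of 3). Footprint ratios of HIF1A over ARNT (8.50 to 10.8 against 3.82 to 6.90) and of BNIP3 over BNIP3L (0.536 to 0.580 against 0.360 to 0.431) do not overlap between treatments, while the RNA ratios do. The pairs were picked after their values were seen, and how many other gene pairs would separate was not tested. Of the pairs not shown, HIF1A over HIF1AN did not overlap in footprints and HIF1A over BNIP3 did.

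EPAS1 (chr2:46297407-46386697), the HIF-2α gene, had few counts. There were 6, 4 and 6 footprint counts in the vehicle libraries and 5, 2 and 3 with zotatifin, too few to be tested. Its RNA counts were 29, 15 and 24 with vehicle and 23, 10 and 16 with zotatifin. The RNA change of −0.72 (SE 0.43) had a 95% interval from −1.61 to 0.16 (adjusted p = 0.384, edgeR), so no difference was detectable at this depth. EPAS1 is also known as a gene of blood vessel lining. All 8 endothelial markers checked were at 5 footprint counts or fewer in each library, with EMCN at 0 in all 6. These are counts on human transcripts, so they do not measure how many vessel cells of the mouse host there were. In RNA 2 of the 8 passed the filter and were not called: PECAM1 differed by −1.21 (SE 0.41, unadjusted p = 0.00747, adjusted p = 0.126, edgeR) and KDR by −1.11 (SE 0.69, adjusted p = 0.403, edgeR). Their part in the EPAS1 value was not tested.

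**Figure D4:**
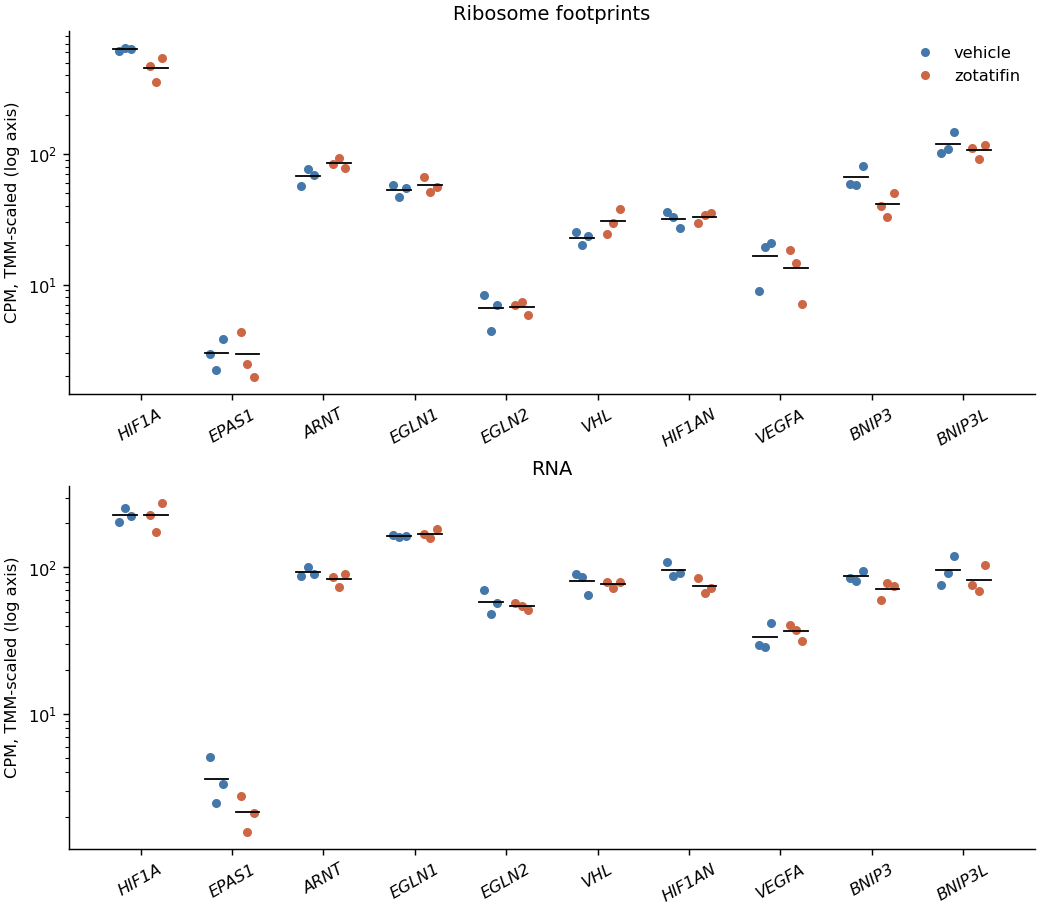
Levels of the 10 genes in each library (CPM with TMM scaling, log axis; top footprints, bottom RNA; points are libraries, bars are means of 3). HIF1A footprints are 609.9 to 651 CPM with vehicle and 356 to 540.1 CPM with zotatifin, and BNIP3 footprints also stand apart between treatments. Of all genes tested in footprints, 13.5% had all treated values lower. EPAS1 is at or below 5.07 CPM in every library.

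None of the 4 genes that sense oxygen or remove the alpha subunit was called in footprints, RNA or TE. Their TE changes were above 0, at 0.08 to 0.51, where 51.6% of all genes tested for TE lay below 0. Those of EGLN1 (0.08, SE 0.19) and EGLN2 (0.09, SE 0.41) were smaller than their SE. EGLN1 (chr1:231363756-231422287) is the main oxygen sensor in most cells and itself a HIF target. EGLN1 RNA was 167, 161 and 165 CPM with vehicle and 169, 159 and 183 CPM with zotatifin, and the groups overlapped. The EGLN1 changes were 0.05 in RNA (SE 0.12, 95% interval −0.19 to 0.29) and 0.13 in footprints (SE 0.16, 95% interval −0.19 to 0.46). EGLN2 (chr19:40799191-40808434) had 36 footprint counts in all 3 vehicle libraries together and 23 in the treated ones. Its interval in footprints, −0.83 to 0.80, therefore leaves a wide range, and its TE was at the 1.26th percentile with vehicle. The readthrough locus RAB4B-EGLN2 overlaps it, so the reads of both may be mixed.

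VHL (chr3:10141778-10153667) encodes the substrate receptor of the ligase that removes HIF-1α. Its footprints were 25.1, 20.0 and 23.5 CPM with vehicle and 24.3, 29.4 and 38.2 CPM with zotatifin. The first treated tumour lay within the range of the controls and the last was well above it. VHL footprints differed by 0.45 (SE 0.22, 95% interval 0.0082 to 0.89, unadjusted p = 0.0455, adjusted p = 0.214, edgeR; 0.21 without zotatifin tumour 3), and VHL RNA by −0.06 (SE 0.14, adjusted p = 0.861, edgeR). The TE change of 0.51 (SE 0.26; 0.30 without zotatifin tumour 3) was not called either (adjusted p = 0.354, edgeR).

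HIF1AN (chr10:100535943-100559998), the asparaginyl hydroxylase, showed its difference in RNA. RNA stood at 109, 87.7 and 91.0 CPM with vehicle and at 84.6, 66.8 and 72.5 CPM with zotatifin. Each treated tumour was below each control, as for 10.9% of genes tested in RNA. The HIF1AN RNA difference of −0.36 (SE 0.13, 95% interval −0.63 to −0.09) had an unadjusted p of 0.0123 and was not called (adjusted p = 0.152, edgeR). Its footprints were 32.0 ± 4.33 and 33.1 ± 3.21 CPM (SD, n = 3 each), a difference of 0.04 (SE 0.19). The authors' deposited table gives the TE change of HIF1AN as 0.50 in log2 with an FDR of 0.0388, where 18.3% of its genes are under 0.05. The edgeR interaction gave 0.40 (SE 0.23, adjusted p = 0.425). Apart from HIF1A, ARNT and HIF1AN, the members had an FDR of 0.0938 (VHL) to 0.878 (BNIP3L) in the authors' table.

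Among the targets, footprints fell on BNIP3 and were not called on BNIP3L or VEGFA. BNIP3 (chr10:131967684-131981923) encodes a receptor on mitochondria that draws the machinery of mitophagy to them. BNIP3 footprints were 59.0, 58.3 and 81.3 CPM with vehicle and 39.9, 33.1 and 50.5 CPM with zotatifin, on 27 to 128 counts a library. All treated tumours were below all controls, as for 13.5% of all genes tested, with vehicle tumour 3 well above the other controls. BNIP3 footprints fell by 0.63 on the log2 scale (SE 0.18, 95% interval −0.99 to −0.26, adjusted p = 0.0282, edgeR). The call was lost under DESeq2 (adjusted p = 0.0704) and without vehicle tumour 1 (0.0685), vehicle tumour 3 (0.158), zotatifin tumour 1 (0.106) or zotatifin tumour 2 (0.108). BNIP3 RNA was 84.6, 80.7 and 94.99 CPM with vehicle and 60.1, 78.2 and 74.3 CPM with zotatifin. Here, too, the treated tumours were all lower, as for 10.9% of genes tested in RNA. The RNA change of −0.29 (SE 0.13, unadjusted p = 0.0355) was not called (adjusted p = 0.233, edgeR). The TE ratio was 0.697, 0.722 and 0.856 with vehicle and 0.664, 0.423 and 0.679 with zotatifin. The treated ratios were again all lower, as for 15.6% of genes tested for TE, though those of tumours 1 and 3 lay close to the controls. The change in TE of −0.34 (SE 0.23) was not called (adjusted p = 0.510, edgeR). In the authors' deposited table the TE change of BNIP3 was −0.29 in log2 with an FDR of 0.218. RefSeq lists 46 pseudogenes of BNIP3, and PPP2R2D overlaps it, so how its reads were assigned is uncertain.

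BNIP3L, the close relative of BNIP3 (chr8:26383054-26413127), had footprints of 101.7, 108.8 and 148 CPM with vehicle and 110.2, 92.0 and 117 CPM with zotatifin. The groups overlapped, and the change of −0.14 (SE 0.14, 95% interval −0.43 to 0.15) was not called (adjusted p = 0.612, edgeR). Its RNA, at −0.21 (SE 0.16), was not called (adjusted p = 0.508, edgeR). In the same libraries the ratio of BNIP3 to BNIP3L raw footprint counts was 0.580, 0.536 and 0.549 with vehicle and 0.362, 0.360 and 0.431 with zotatifin. The ranges did not overlap (two-sided exact permutation p = 0.1, the smallest possible, and 0.267 adjusted over 8 ratios). This pair, too, was picked after its values were seen, and how many other pairs would separate was not tested. In RNA the same ratio was 0.929 ± 0.165 and 0.883 ± 0.224 (SD, n = 3 each; exact permutation p = 0.7).

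VEGFA (chr6:43770211-43786487), the main growth factor for vessels, had 18, 35 and 33 footprint counts with vehicle and 21, 12 and 11 with zotatifin. Its footprints were 16.4 ± 6.60 and 13.4 ± 5.68 CPM (SD, n = 3 each). The change of −0.34 (SE 0.35, 95% interval −1.05 to 0.38, adjusted p = 0.615, edgeR) was not detectable at this depth, and its sign turned without zotatifin tumour 3 (0.05). VEGFA RNA was 33.4 ± 7.46 and 36.6 ± 4.71 CPM (SD, n = 3 each), with overlapping groups and a difference of 0.13 (SE 0.17, adjusted p = 0.731, edgeR).

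HIF binds DNA at the core ACGTG or GCGTG, and the promoters of the target BNIP3 and of the sensor EGLN1, a target too, are shown for the place of these cores relative to the start. The 250 bases before the RefSeq start are given 5′ to 3′ on the gene's strand, with matches on either strand in capitals (BNIP3 at chr10:131981924-131982173 and EGLN1 at chr1:231422288-231422537, both minus strand).
BNIP3: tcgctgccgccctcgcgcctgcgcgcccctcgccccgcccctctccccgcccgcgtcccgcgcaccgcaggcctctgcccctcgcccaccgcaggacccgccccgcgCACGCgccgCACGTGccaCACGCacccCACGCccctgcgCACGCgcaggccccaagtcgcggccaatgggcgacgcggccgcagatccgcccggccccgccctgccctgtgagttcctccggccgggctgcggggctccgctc
EGLN1: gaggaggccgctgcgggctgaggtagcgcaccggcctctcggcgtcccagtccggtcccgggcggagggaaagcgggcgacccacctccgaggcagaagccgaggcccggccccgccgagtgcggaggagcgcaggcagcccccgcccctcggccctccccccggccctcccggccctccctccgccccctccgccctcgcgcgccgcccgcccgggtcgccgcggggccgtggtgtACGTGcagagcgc
BNIP3 has 6 matches, counting both strands: 4 of GCGTG, all on the opposite strand, and 2 of ACGTG, which are 1 palindrome, CACGTG, read on each strand and overlapping. EGLN1 has 1, of ACGTG. Over 27305 promoters of this length, 43.1% hold either core, 18.7% hold ACGTG, and 0.656% hold 6 or more matches. BNIP3's window is rich in G and C, at 81.6%, against a median of 58%. Of the others in the table, EGLN2 has 2 matches (a CACGTG), HIF1A and EPAS1 have 1 each, and ARNT and HIF1AN have 0. A match is a description of the letters and does not show that HIF was bound.

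Other genes of the pathway, 71 in 5 lists, gave calls at rates no higher than the background, counting rises and falls together. Of the 51 tested in footprints, 2 fell and 0 rose (3.92% called, against 7.14% of all genes); their median change was −0.03. In RNA 1 of 67 rose (1.49% called, against 1.72% of all genes called and 0.808% as rises). In TE 1 of 51 fell (1.96% called, against 2.04% of all genes called and 1.6% as falls). Of the 12 other regulators of HIF, 11 were tested in footprints, and ELOC fell. ELOC encodes elongin C, which joins VHL to the rest of its ligase. ELOC footprints were 142.0, 158 and 142.3 CPM with vehicle and 98.9, 92.0 and 108.0 CPM with zotatifin. The treated values were all lower, as for 13.5% of all genes tested. ELOC footprints fell by 0.55 (SE 0.12, adjusted p = 0.00596, edgeR), and the call remained without any 1 library. ELOC RNA differed by 0.16 (SE 0.17, adjusted p = 0.659, edgeR). The TE change of ELOC, −0.71 (SE 0.20), missed the threshold (adjusted p = 0.0541, edgeR) and passed it with the tumour as a block (−0.69, adjusted p = 0.00720, edgeR), but not with limma on 1 ratio per tumour (−0.71, adjusted p = 0.135).

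Of 31 other targets outside glycolysis, 19 were tested in footprints, and 1 fell: AK4, a mitochondrial adenylate kinase, by 0.45 (SE 0.13, adjusted p = 0.0367, edgeR), from 124 ± 5.54 to 88.7 ± 15.3 CPM (SD, n = 3 each). That call was lost under DESeq2 (adjusted p = 0.0813) and without any 1 library except zotatifin tumour 3 (0.0598 to 0.172). Of 19 glycolytic targets, 16 were tested in footprints and 0 were called. SLC2A1, the glucose transporter GLUT1, rose in RNA from 124 ± 14.7 to 201.4 ± 41.2 CPM (SD, n = 3 each), by 0.70 (SE 0.14, adjusted p = 0.0160, edgeR; 0.151 without vehicle tumour 1). SLC2A1 footprints did not follow, at −0.17 (SE 0.16, adjusted p = 0.575, edgeR), and its TE fell by 0.86 (SE 0.23, adjusted p = 0.0428, edgeR). The TE call of SLC2A1 remained with vehicle tumour 2 left out, under DESeq2 (adjusted p = 0.0355) and with the tumour as a block (−0.83, adjusted p = 3.71e-05, edgeR). It was lost without any other library, up to an adjusted p of 0.194 (edgeR), at a mean of at least 50 counts (0.0527, edgeR) and with limma (0.0924). Of 7 other mitophagy genes, 5 were tested in footprints and 0 were called; PINK1, the kinase that marks damaged mitochondria, had the smallest p of these, with a footprint difference of 0.51 (SE 0.20, adjusted p = 0.113, edgeR). HIF3A and ARNT2, the other subunits, did not pass the filter in footprints, and their RNA was not called.

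**Figure D5:**
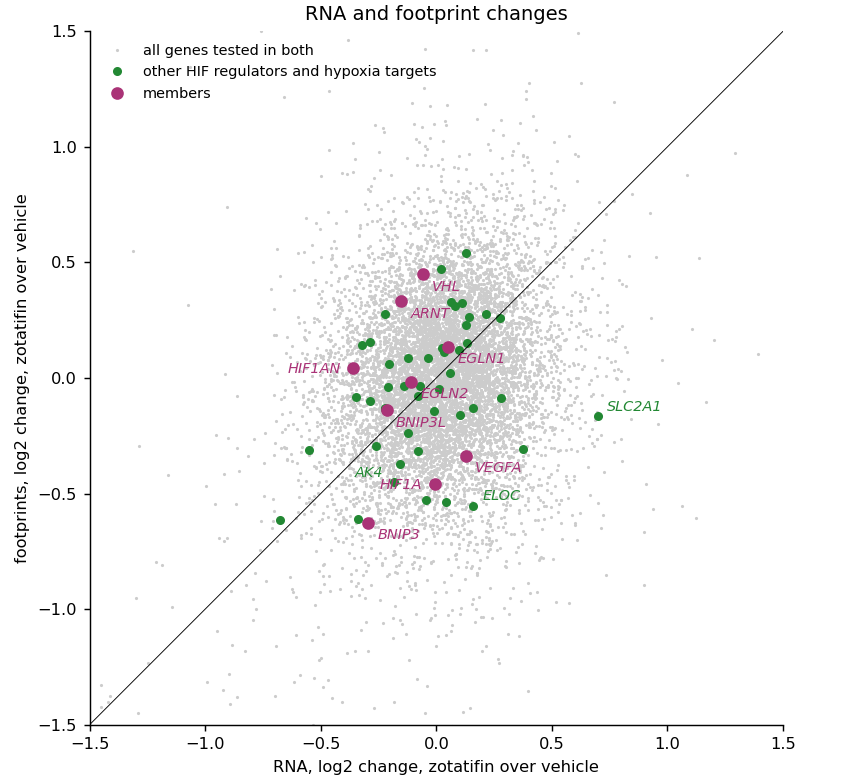
RNA change (x) against footprint change (y), both log2 of zotatifin over vehicle, for 9454 genes tested in both (grey), other pathway genes (green) and the 9 members tested (purple); 51 genes lie outside the axes, and the line marks equal change. HIF1A and ELOC sit near 0 in RNA and low in footprints, BNIP3 is low in both, and SLC2A1 is far to the right with a footprint change of −0.17.

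The genes whose 12 library values lay closest to those of HIF1A, each taken as log2 CPM minus the vehicle mean of its assay, were TMOD3, TOP2B, ITPR2, RBPJ and NAA15. Their Euclidean distances from HIF1A were 0.312 to 0.412, against a median of 1.24 over the 4889 genes that averaged 50 counts or more in both assays. Their footprint changes ran from −0.52 (TOP2B) to −0.30 (RBPJ). For BNIP3 the closest were RAP1B, TFPI, SEC24D, ASPH and CPSF6, at 0.568 to 0.639 against a median of 1.57, with footprint changes from −0.74 (ASPH) to −0.41 (CPSF6). Closeness here describes 6 tumours and includes the treatment difference itself.

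The 2 falls in footprints stood beside the shift in fibroblast and leukocyte markers given above. Of 10 fibroblast markers, 6 passed the filter in each assay; 5 fell in footprints and 4 in RNA. Of 7 leukocyte markers, 4 passed in footprints and 2 fell, with CD14 at 0 in every footprint library. In RNA 3 passed and 1 fell, and the sums of the 7 overlapped between treatments (16.2 to 54.8 and 10.8 to 20.6 CPM). Of the 5 globin genes, HBE1 (−1.59, adjusted p = 0.00878, edgeR) and HBG1 (−1.51, adjusted p = 0.0240, edgeR) fell in footprints. HBB at −1.57, HBA1 at 0.14 and HBA2 at 0.15 were not called in footprints. In RNA HBB was the only globin gene called, as a fall (−1.51, adjusted p = 0.0496, edgeR). The part of these markers in the HIF1A and BNIP3 results was not tested, nor was the share of mouse reads in the marker counts.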

How the data were processed

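Footprint and RNA libraries of 6 tumours were analysed from the authors' deposited tables of raw counts per transcript (19037 for footprints, 19038 for RNA). In the authors' deposited RNA table the mean level is a normalised count signal, fold changes with their errors are log2 values, the statistic is a score, and p-values are plain and adjusted. The authors' deposited footprint table gives an FDR, an adjusted p-value, and a model estimate, taken as a natural log change of TE. In 1566 genes averaging over 200 counts, the estimate weighted log2 changes of footprints by 0.658 and of RNA by −0.662, close to the natural log of 2 (0.693). Per the submitters' processing notes, cutadapt 2.3, UMI-tools, Bowtie2 2.3.5 and DESeq2 were used with hg38; step order, strandedness and counted transcript part are not given in these sources. Fragments of 24 to 34 nt were taken for footprints, per the labels' protocols.

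Groups were taken from titles. The treatment field contradicts the title in 6 of 12 samples, and the code in the column names was read as zotatifin. Counts were tested in R 4.3.3 with edgeR 4.0.16 (filterByExpr with a minimum count of 10 and a total of 15, TMM, robust quasi-likelihood F test, Benjamini-Hochberg over all tested genes), in each assay apart and, for TE, as the interaction over 12 libraries with TMM within assay. Scripts were tested on simulated data, where fold changes were recovered but the main TE fit missed most of the changed genes. Alternatives were DESeq2 1.42.0, RLE size factors, no low-count filter, a mean of at least 50 counts, each library left out, a replicate block and, added after the data were seen, limma 3.58.1 on per-tumour ratios. Over 4889 genes, deviations of the footprint and RNA library of 1 treatment and number had correlations of 0.217 to 0.441 (6 pairs; −0.381 to 0.119 for differing numbers), so numbers pair the assays within a tumour. P-values measure the spread between these tumours. The main TE fit takes the footprint and RNA libraries of a tumour as independent. Only the tumour block and limma on per-tumour ratios use that pairing. The members were named in advance of this work, and they and the gene lists were chosen with earlier results of these data known. Named were all 10 members, every called gene of the other pathway lists or, for a list with no call, the gene of smallest p in footprints, and the 5 genes nearest to HIF1A and to BNIP3. Some markers of the cell type lists are not reported here.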

Additional observations from a re-analysis of the deposited data

How the results depend on the processing

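Alternatives gave 339 recomputed changes and counts of members called, of which 325 kept the call or count of the main fit. Most of these were changes that the main fit had not called. No called value changed sign, and those that did not keep it concern HIF1A, BNIP3 and the counts of members called. DESeq2 gave no adjusted p for the footprints of EGLN2, VHL and VEGFA, which are left out of the 339. It called 1 member in footprints (HIF1A) in place of 2, and leaving out 1 library gave 0 to 2. The change in HIF1A footprints ran from −0.60 to −0.31 over the 6 libraries left out, and it was called in 9 of 11 alternatives; BNIP3 footprints, from −0.83 to −0.46, were called in 6 of 11. For BNIP3 the lost calls were at −0.65 under DESeq2 and at −0.71 (without vehicle replicate 1), −0.46 (vehicle 3), −0.59 (zotatifin 1) and −0.52 (zotatifin 2). The tumour replicate block raised the members called in TE from 0 to 1, with HIF1A at −0.47. Across treatments, equal numbers had correlations of −0.09 to 0.18 (6 pairs) and unequal ones of −0.20 to 0.17 (12 pairs), so numbers gave no clear pairing between treatments; a replicate block across treatments called 2 members in footprints and 0 in RNA. It called 796 genes in footprints and 527 in RNA.

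Calls over all genes moved further: in footprints from 681 to 416 with DESeq2 and to between 185 and 726 with 1 library left out; in RNA from 225 to 624 with no filter, 140 at a mean of 50 counts and 11 to 396 with 1 library left out; in TE from 193 to 864 with the tumour block, 28 with limma and 60 to 146 with 1 library left out. Depth limits EPAS1, EGLN2 and VEGFA most, and some uncalled changes took either sign with 1 library left out, such as HIF1A RNA (−0.18 to 0.15), EGLN2 footprints (−0.24 to 0.22) and VEGFA footprints (−0.69 to 0.05).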
